A study of Mus musculus with 288 samples.

Results

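Genes of the cytosolic ribosomal proteins were followed by bulk RNA sequencing of mouse liver, lung and white adipose tissue, here called white fat. Members were chosen by symbol: Rpl or Rps followed by a digit, or Rplp0, Rplp1 or Rplp2, without ribosomal S6 kinases and without symbols marked as pseudogenes, and present in the tables of both genotypes of a tissue. This gave 82 of 15176 genes, with 79 of 10848 in liver, 82 of 13623 in white fat and 80 of 14044 in lung. The rule used no measured value. Rps19bp1 met the rule but encodes a protein that binds a ribosomal protein and is not part of the ribosome, and a few others are paralogs of core members. All mice were C57BL/6, 3 months old, housed with 12 h light and 12 h dark periods, and all carried Alb-Cre, in which the albumin promoter drives Cre in hepatocytes. The BLKO animals also carried Bmal fl/fl, the floxed gene of the core clock transcription factor BMAL1 (symbol Arntl), and Alb-Cre mice, the controls, did not. The 4 groups of each tissue were BLKO fed only in the light phase (daytime-fed, DF), BLKO fed ad libitum (AL), Alb-Cre daytime-fed and Alb-Cre ad libitum, each feeding lasting 30 days. Each group held 24 libraries, 2 (A and B) at each of 12 label times from 0 to 22 h, which makes 288 libraries, and the design asks how feeding time acts on tissues with and without the liver clock.

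A ribosome joins ribosomal RNAs with a large set of proteins, nearly all present as a single copy, in a large subunit that forms peptide bonds and a small subunit that reads the mRNA. Most ribosomal protein mRNAs are short, abundant and begin with a run of pyrimidines (a TOP start) through which mTOR signalling, with factors such as Larp1, controls their translation after feeding. In mouse liver, ribosome production and TOP mRNA translation are known to follow the clock and feeding across the day. The present counts measure RNA abundance and not translation.

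Counts per library ranged from 1214842 to 5462461 in liver, 1365001 to 5040306 in white fat and 923122 to 3973976 in lung. The members took a median of 4.39% of the counts in BLKO daytime-fed livers, 4.27% in BLKO ad libitum livers, 4.01% in Alb-Cre daytime-fed livers and 3.78% in Alb-Cre ad libitum livers. In white fat these medians were 6.50%, 6.58%, 6.34% and 5.99%, in the same order of groups, and in lung 7.58%, 7.62%, 6.07% and 6.04%. The 2 genotypes stand in separate tables, so that a gene's level is compared between feedings and times within a table, and a difference in level between genotypes cannot be told apart from a difference between tables. A number in the titles is likewise unique to each combination of genotype and feeding; a batch effect behind it, if any, and the group effect cannot be told apart. Liver Arntl was not lowered in level, with 7.53 to 15.3 CPM (counts scaled to a common library size) in BLKO ad libitum livers and 0 to 24.8 CPM in Alb-Cre ad libitum livers, but its 24 h rhythm was not called in BLKO ad libitum livers (peak-to-trough 0.42 on the log2 scale, adjusted p = 0.51, edgeR) and was called in Alb-Cre ad libitum livers (4.12, adjusted p = 1.2e-13). Which part of the transcript the reads come from is not given, so the level is no check of the deletion. Of the defining markers, 10 of 10 hepatocyte genes were measured in liver, 9 of 9 adipocyte genes in white fat and 6 of 7 alveolar genes in lung. In bulk tissue, fewer cells of a type and less RNA per cell cannot be told apart.

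**Figure D1:**
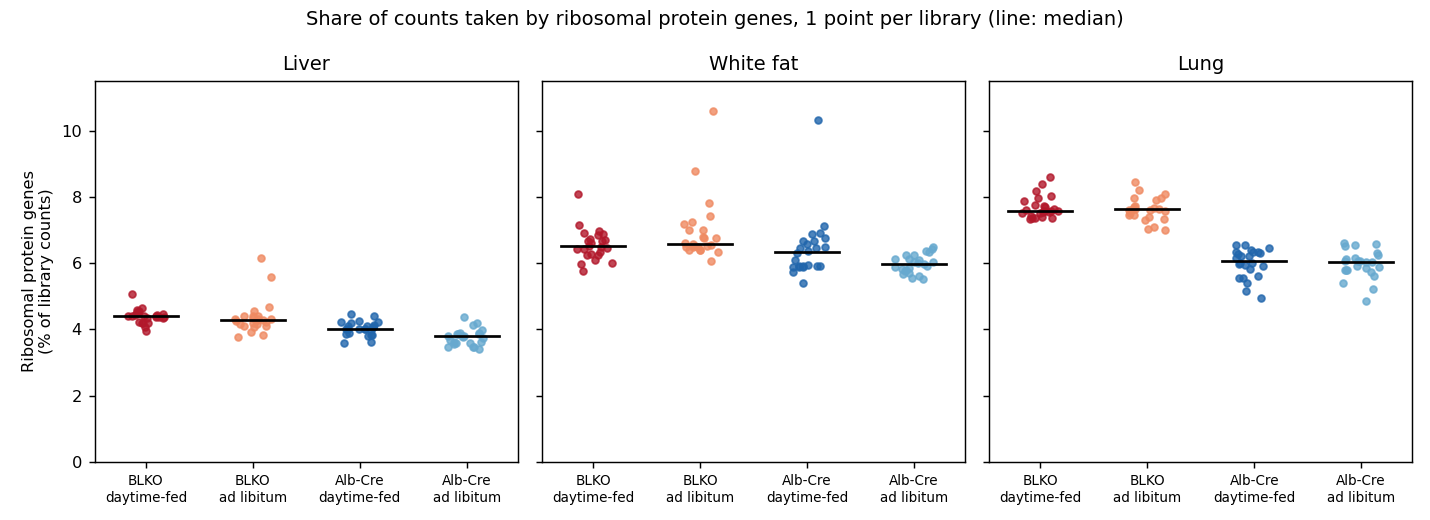
Percent of each library's counts that fell on ribosomal protein genes, with 1 point per library, 24 libraries per group, and a line at the group median. The highest points were BLKO ad libitum 0B in white fat (10.6%) and Alb-Cre daytime-fed 0B in white fat (10.3%).

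Some libraries stood apart in genes outside the ribosome. BLKO ad libitum 0B and 4B had 86.8 and 95.2 CPM of the hepatokine gene Fgf21 in liver, against a median of 2.55 CPM in the 22 other livers of the group, and 51.6 and 67.6 CPM of the leptin gene Lep in white fat, against a median of 952 CPM. Their member shares were 6.17% and 5.58% in liver and 10.6% and 8.78% in white fat, the 2 highest of the group in each tissue. White fat of Alb-Cre daytime-fed 0B, BLKO daytime-fed 0A and Alb-Cre ad libitum 14B held 4204, 2925 and 1258 CPM of Adam7, a gene of the epididymis, while all other libraries of those groups stood at 43.7 CPM or lower. The member share was 10.3% in the first and 8.10% in the second of these. Counts or medians of results that rest on these libraries are given with and without them, and values of single members for some. The library 0B had the highest member share in 8 of the 12 groups.

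The median member had a mean level of 440 CPM in liver, 642 CPM in white fat and 701 CPM in lung, and 6, 7 and 3 members lay under 10 CPM. CPM is not corrected for length, so levels of different members are not ranked here as molecules. By CPM the leading member was Rplp1, an acidic protein of the ribosomal stalk that recruits elongation factors, with 2756 CPM in liver, 3998 CPM in white fat and 3992 CPM in lung. In liver it was followed by Rps2, Rpl41, Rps18 and Rpl4, in white fat by Rpl41, Rplp2, Rps29 and Rps21, and in lung Rpl8, Rps21 and Rpl4 were among the next. Among the paralogs Rpl7l1 stood at 33.7 to 36.4 CPM across tissues, Rpl22l1 at 7.57 to 24.5 CPM, Rps4l at 35.2 to 71.9 CPM, Rpl36al at 134 to 218 CPM and Rps27l at 150 to 354 CPM. Ribosomal protein genes have many near-identical processed copies in the genome, and how shared reads were counted is not given, so each member's count is uncertain to that extent. Each of the 82 symbols matched a single gene of the mouse annotation, on 19 chromosomes with 4 on X, and 2 of these genes, Rpl37rt and Rps4l, are annotated there as transcribed processed pseudogenes although their symbols do not say so. Tests were possible for 77 members in liver, 78 in white fat and 79 in lung. Rpl21 and Rps27 in liver, Rpl34, Rpl3l, Rps15a and Rps27 in white fat and Rps15a in lung did not pass the filter on low counts and were not tested.

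Sequences at the start of transcription are shown because the pyrimidine start is the feature that marks these mRNAs for control by feeding. RefSeq promoters of GRCm38.p6 were found for 62 of the 82 members, with 74 starts. At 13 of the 74 starts (17.6%) the annotated first base was C and was followed by at least 4 pyrimidines, against 823 of 32851 starts of all genes (2.51%). Annotated starts can lie a few bases off the true start. The windows below hold 30 bases with the annotated start at base 16, and capitals mark the pyrimidine run that begins there. The first 4 are members with such a start that the results below turn on: Rpl35, chr2:39005117-39005146, minus strand, Rplp2, chr7:141447636-141447665, plus strand, Rpl35a, chr16:33056467-33056496, plus strand, shown for 1 of its 3 annotated starts, and Rps10, chr17:27635230-27635259, minus strand. The last are Rpl39, chrX:37085208-37085237, minus strand, and Rpl7l1, chr17:46782642-46782671, minus strand, the member with the largest feeding difference and the member with the most frequent rhythm, whose annotated starts have no such run.
Rpl35: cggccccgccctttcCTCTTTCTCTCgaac
Rplp2: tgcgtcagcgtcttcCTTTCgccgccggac
Rpl35a: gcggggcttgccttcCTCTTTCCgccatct
Rps10: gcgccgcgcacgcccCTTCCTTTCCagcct
Rpl39: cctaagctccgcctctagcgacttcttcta
Rpl7l1: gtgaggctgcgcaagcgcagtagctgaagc
The motif CCGGAAG, the core of sites for ETS factors such as GABP, was searched on both strands in the 300 bases around each start. It was in 24 of the 74 member promoters (32.4%), against 8.86% of all promoters. A match is a description of the letters and not a bound site. In BLKO white fat the 11 tested members with a pyrimidine start had a median feeding difference of -0.12 on the log2 scale. The 47 with another start had -0.09. In Alb-Cre white fat these medians were 0.12 and 0.13. In livers (11 and 48 members) they were 0.05 and 0.02 in BLKO and 0.08 and 0.06 in Alb-Cre mice. In lungs (11 and 48 members) they were -0.004 and 0.03 in BLKO and -0.02 and -0.01 in Alb-Cre mice. The 18 tested liver members with no promoter found had medians of 0.04 in BLKO and 0.14 in Alb-Cre mice. Whether these sets of members differ was not tested.

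In BLKO livers 10 of 77 members rose and 0 fell, against 2.24% and 2.01% of all genes tested (edgeR quasi-likelihood F test, adjusted p under 0.05 over all genes of the tissue). The median log2 fold change, daytime-fed over ad libitum, was 0.023 for the members and -0.011 for all genes, and with library totals in place of TMM scaling 5 members were called and the median was -0.0002 with 38 of 77 above 0. The median was 0.058 with 63 of 77 above 0 without BLKO ad libitum 0B and 4B, and without 0B of every group 0.050 with 59 above 0. Rpl27a, a large subunit protein, had 118, 161 and 184 CPM (lowest, median, highest of 24) in BLKO daytime-fed livers, against 81.6, 137 and 164 CPM in BLKO ad libitum livers. Of the daytime-fed livers 21 lay above the ad libitum median and 8 above every ad libitum liver, with a log2 fold change of 0.22 ± 0.04 (edgeR adjusted p = 0.00077). Rpl32, a large subunit protein, had 709, 875 and 1060 CPM in BLKO daytime-fed livers, against 637, 777 and 952 CPM in BLKO ad libitum livers, a log2 fold change of 0.17 ± 0.04 (adjusted p = 0.0048), and 21 livers of the daytime-fed group exceeded the median of the ad libitum group. In BLKO livers too 2 of 9 macrophage markers were called, both higher, with a summed level of 172, 325 and 491 CPM (lowest, median, highest) in BLKO daytime-fed livers, against 193, 299.7 and 566 CPM in BLKO ad libitum livers; their part in the result was not tested. The other members called were Rpl7 (0.19), Rpl11 (0.11), which also binds the p53 regulator Mdm2, Rpl35 (0.16), Rpl15 (0.26), Rps25 (0.25), Rpl3 (0.13), Rpl13 (0.15) and Rpl39 (0.38, adjusted p = 0.0496). All of these but Rps25 were large subunit genes. Without BLKO ad libitum 0B and 4B, 10 were again called, but Rpl15 was not among them (0.23, adjusted p = 0.061), and without 0B of every group Rps25 was lost (0.22, adjusted p = 0.071). The count fell to 4 when the libraries of 20 h were left out and to 6 without those of 6 h or of 14 h. Rpl3, Rpl7, Rpl11 and Rpl32 rose in both genotypes, which is 4 of the 10 called in BLKO and 4 of the 24 called in Alb-Cre livers.

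In Alb-Cre livers 23 of 77 members rose with daytime feeding and 1 fell, against 4.33% and 3.54% of all genes tested. The median log2 fold change was 0.11 for the members and -0.002 for all genes, and 59 of the 77 members were above 0. The members called were spread over the ribosome, with 14 of 41 large subunit genes (Rpl37rt counted among the 41), 7 of 26 small subunit genes, 2 of 3 stalk genes and the ubiquitin fusion gene Rps27a, and 0 of 5 paralogs. The members that rose changed by at most 0.40 on the log2 scale.

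Rpl3, a large subunit protein near the site of peptide bond formation, had 336, 425 and 508 CPM (lowest, median, highest of 24) in Alb-Cre daytime-fed livers, against 292, 342 and 418 CPM in Alb-Cre ad libitum livers. All but 1 of the daytime-fed livers lay above the ad libitum median and 13 lay above every ad libitum liver, while the ranges overlapped. The log2 fold change was 0.30 ± 0.04 (SE, n = 24 each, edgeR adjusted p = 7.4e-09). Rps10, a protein of the small subunit head, had 673, 791 and 890 CPM in Alb-Cre daytime-fed livers, against 548, 630 and 795 CPM in Alb-Cre ad libitum livers. All 24 daytime-fed livers lay above the ad libitum median, and the log2 fold change was 0.30 ± 0.04 (SE, edgeR adjusted p = 7.7e-07). Rpl13a, which in human monocytes also represses inflammatory mRNAs off the ribosome, rose by 0.26 ± 0.04, and Rps27a, made as a fusion with ubiquitin, by 0.40 ± 0.07. The stalk base gene Rplp0 (0.20), the Diamond-Blackfan anaemia gene Rps19 (0.22), Rpl9 (0.23), Rps13 (0.24), Rpl7 (0.21) and Rpl4 (0.17) completed the 10 with the lowest p. The member that fell was Rps4x, the X-linked small subunit gene, at -0.53 ± 0.13 (adjusted p = 0.0042), with 12.3, 39.5 and 63.0 CPM in Alb-Cre daytime-fed livers, against 19.5, 49.0 and 110 CPM in Alb-Cre ad libitum livers. Macrophage markers moved in the same comparison, with 2 of 9 called, both higher, a list median of 0.25 and a summed level of 206, 394 and 570 CPM in Alb-Cre daytime-fed livers, against 197, 285 and 1309 CPM in Alb-Cre ad libitum livers; their part in the result was not tested.

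**Figure D2:**
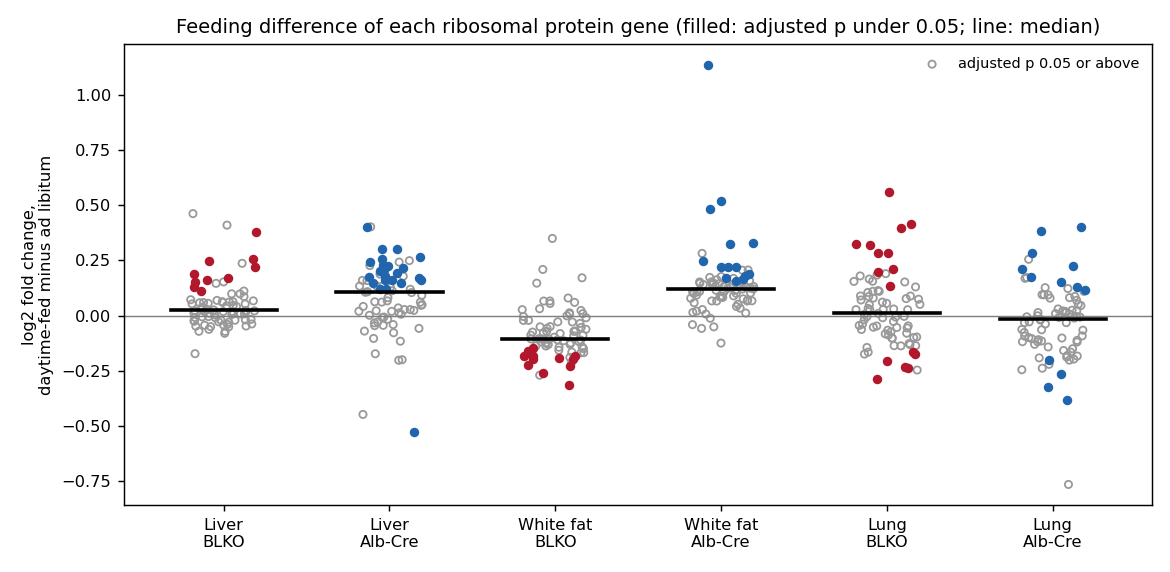
Log2 fold change of each tested ribosomal protein gene, daytime-fed over ad libitum, for each tissue and genotype (24 libraries per group), filled where the adjusted p was under 0.05, with a line at the median. The median of BLKO white fat (-0.11) lies below 0, those of Alb-Cre liver (0.11) and Alb-Cre white fat (0.12) above it, and those of lung next to it.

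The difference between the genotypes was tested as the feeding difference in BLKO minus that in Alb-Cre, in which a constant offset between tables cancels. How reads of gene copies were assigned may differ between tables, and its part in the interactions was not tested; Rps4x, for example, stood at -2.25 (log2, BLKO minus Alb-Cre, ad libitum) in liver. In liver 1 member was higher and 5 were lower, against 0.921% and 0.81% of all genes tested. Rps27a (-0.48 ± 0.10, adjusted p = 0.007), Rpl9 (-0.26), Rps10 (-0.25), Rpl13a (-0.24) and Rps19 (-0.20, adjusted p = 0.0499) had a smaller feeding difference in BLKO than in Alb-Cre livers, and Rps4x had an interaction of 0.99 ± 0.20 (adjusted p = 0.0032). Without BLKO ad libitum 0B and 4B, Rpl13a (-0.19, adjusted p = 0.052) and Rps19 (-0.18, adjusted p = 0.10) were no longer called, while Rps4x (1.00), Rps27a (-0.45), Rpl9 (-0.21) and Rps10 (-0.20) were. Leaving out the libraries of 4 h or of 18 h gave 2 calls, and those of 10 h or of 12 h gave 3.

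White fat had the most members called in the interaction. In BLKO white fat 0 of 78 members rose with daytime feeding and 12 fell, against 5.02% and 5.39% of all genes tested, and 15 of 78 were above 0 with a median of -0.11 on the log2 scale. In Alb-Cre white fat 14 rose and 0 fell, against 4.89% and 4.91%, and 73 of 78 were above 0 with a median of 0.12, which was 0.079 without the Adam7 libraries, 0.072 without 0B of every group and 0.067 without the libraries of 0 h. The interaction was called for 22 members, all of them lower, against 1.71% of all genes higher and 1.89% lower, with 73 of 78 members below 0 and a median of -0.23, against -0.009 for all genes. That median was -0.17 without BLKO ad libitum 0B and 4B, -0.15 without 0B of every group and -0.15 without all 5 libraries that stand apart. The 2 feeding contrasts share no libraries.

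In BLKO white fat 2 of the 3 stalk genes fell, while Rplp0 was at -0.004 ± 0.06 (adjusted p = 0.98). Rplp2 had 2492, 2938 and 3294 CPM in BLKO daytime-fed white fat, against 2252, 3285 and 6183 CPM in BLKO ad libitum white fat. All but 1 of the daytime-fed libraries lay below the ad libitum median, and no daytime-fed library lay below every ad libitum one. The log2 fold change was -0.26 ± 0.06 (edgeR adjusted p = 0.00097). Rplp1 had 3235, 3670 and 4802 CPM in BLKO daytime-fed white fat, against 3681, 4121 and 5839 CPM in BLKO ad libitum white fat, and 13 of the 24 daytime-fed libraries lay below every ad libitum one. Its log2 fold change was -0.18 ± 0.04 (adjusted p = 0.002). Rpl35a, another Diamond-Blackfan anaemia gene, fell by 0.32 ± 0.07, with Rps20 (-0.18), Rps3a1 (-0.23), Rpl35 (-0.20), Rpl37a (-0.18), Rps28 (-0.23), Rps24 (-0.16) and Rps14 (-0.19) next by p. Without BLKO ad libitum 0B and 4B, 7 members fell and the median was -0.05, and Rpl37a, Rps28 and Rps14 were no longer called. Without the 3 libraries that hold Adam7, 29 fell, and without all 5 libraries 14 fell with a median of -0.08. Some immune markers moved in the same direction, with 3 of 8 macrophage genes, 1 of 2 T cell genes and the single measured B cell gene lower. The summed macrophage level was 848 to 1539 CPM in BLKO daytime-fed white fat, against 873 to 2157 CPM in BLKO ad libitum white fat. S100a8, the measured neutrophil marker, went the other way, with medians of 5.44 and 3.78 CPM in the same order. In Alb-Cre white fat, where members rose, summed macrophage medians were 1082 CPM daytime-fed and 1178 CPM ad libitum. Summed T cell medians there were 6.68 and 9.26 CPM. The part of immune cells in the result was not tested.

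In Alb-Cre white fat Rpl39, a very small protein in the wall of the peptide exit tunnel, had 9.40, 27.8 and 73.0 CPM in daytime-fed libraries, against 5.38, 12.0 and 30.0 CPM in ad libitum libraries. All but 1 of the daytime-fed libraries lay above the ad libitum median and 9 above every ad libitum library. The log2 fold change of 1.14 ± 0.15 (edgeR adjusted p = 5.6e-08) was the largest of any member in any feeding contrast. Rps4x had 27.3, 111 and 220 CPM in Alb-Cre daytime-fed white fat, against 40.8, 70.8 and 119 CPM in Alb-Cre ad libitum white fat, a log2 fold change of 0.52 ± 0.11 (adjusted p = 0.00042). In 22 of the 24 daytime-fed libraries it lay above the ad libitum median. Rps27a (0.33), Rpl32 (0.22), Rpl36a (0.25), Rps24 (0.18), Rpl19 (0.22), Rps26 (0.32), Rps19 (0.16) and the paralog Rpl22l1 (0.48) were next by p. Without the libraries of 12 h 8 members were called. The count was 11 without the Adam7 libraries and 17 without all 5 libraries that stand apart, all risen. Values of the single members of this contrast without these libraries are not given here. Smooth muscle markers rose in the same comparison, 5 of 5, with a summed level of 172 to 533 CPM in Alb-Cre daytime-fed white fat, against 133 to 250 CPM in Alb-Cre ad libitum white fat, and markers of proliferating cells fell, 3 of 3. Of the brown adipocyte markers 2 of 3 rose, with a median summed level of 105 CPM in Alb-Cre daytime-fed white fat, against 52.7 CPM in Alb-Cre ad libitum white fat, and Acta1, the measured skeletal muscle marker, rose with medians of 104 and 46.6 CPM in the same order. In BLKO white fat 0 of 3 brown adipocyte markers were called, with medians of 117 CPM in daytime-fed and 74.7 CPM in ad libitum libraries. The other medians there, where members fell, moved in the same direction as in Alb-Cre white fat. Daytime-fed and ad libitum, they were 408 and 348 CPM for smooth muscle and 65.5 and 48.9 CPM for Acta1. For proliferating cells they were 7.94 and 11.9 CPM in the same order. The part of these cells in the results was not tested.

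The 10 interactions with the lowest p in white fat were Rps24 (-0.34 ± 0.07, adjusted p = 0.0014), Rpl35 (-0.37), Rps27a (-0.54), Rpl39 (-0.97), Rplp1 (-0.28), Rps3a1 (-0.35), Rplp2 (-0.34), Rps28 (-0.38), Rps16 (-0.39) and Rpl24 (-0.28). Rps24 and Rpl35 were called in both genotypes and in opposite directions, at -0.16 and -0.20 in BLKO white fat and 0.18 and 0.17 in Alb-Cre white fat. Without BLKO ad libitum 0B and 4B the interaction was called for 13 members, without the Adam7 libraries for 30 and without all 5 for 18, and all 10 named stayed called with the same sign in each of these. The count was 5 without the libraries of 10 h, 12 without those of 12 h and 14 without those of 14 h. With library totals alone it was 15, with 73 of 78 members still below 0. Among the 10 named, Rps16 stood at 1.82 between the tables (log2, BLKO minus Alb-Cre, ad libitum). The part of this offset in its interaction was not tested.

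**Figure D3:**
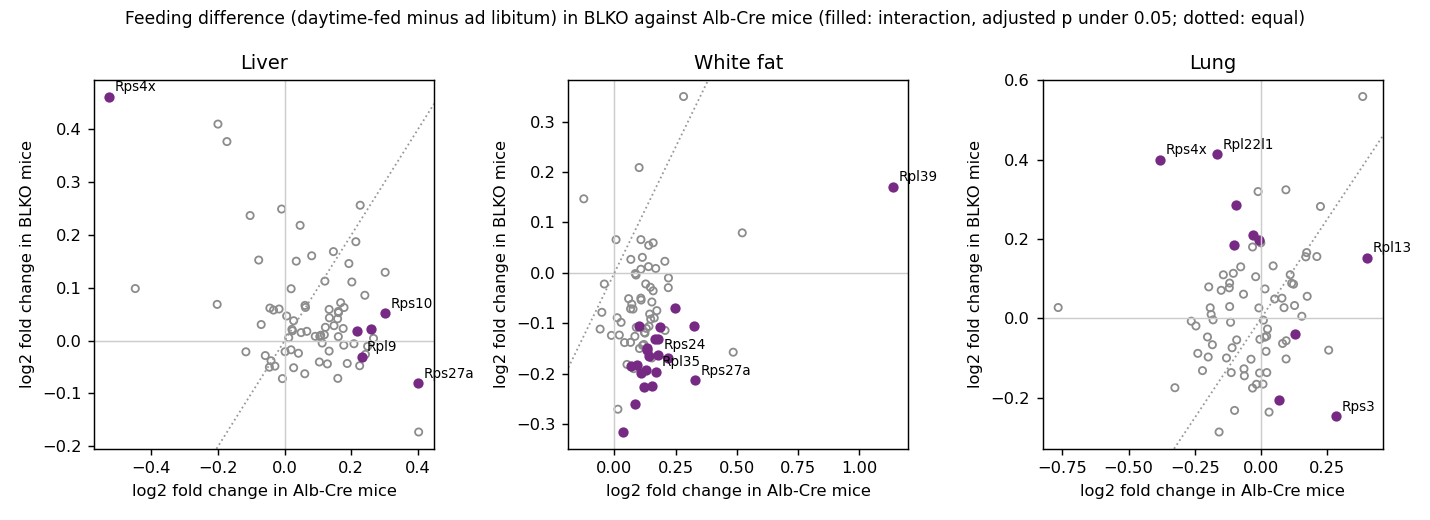
Feeding difference (log2 fold change, daytime-fed over ad libitum) of each tested member in BLKO mice on the vertical axis against that in Alb-Cre mice on the horizontal axis, filled where the interaction had an adjusted p under 0.05, with a dotted line where both are equal. In white fat all 22 filled points lie below the dotted line, and most members lie to the right of 0 and under 0.

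In lung members moved in both directions. In BLKO lung 10 of 79 rose and 6 fell, against 2.17% and 2.44% of all genes tested, with a median of 0.010. In Alb-Cre lung 9 rose and 4 fell, against 4.34% and 4.69%, with a median of -0.017. The 4 that fell are close to the share of all genes. With library totals 6 rose and 5 fell in Alb-Cre lung. With each genotype's table fitted alone, 16 rose and 10 fell in BLKO lung, and 3 rose and 2 fell in Alb-Cre lung. Of the 13 called in Alb-Cre lungs, the count was 6 without the libraries of 12 h and 8 without those of 2, 4, 14 or 16 h. These lungs also varied in muscle: summed skeletal muscle markers reached 6763 and 7392 CPM in single BLKO daytime-fed and BLKO ad libitum libraries and 8313 and 7530 CPM in single Alb-Cre daytime-fed and Alb-Cre ad libitum libraries, against group medians of 66.8 to 106 CPM.

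Rpl27a had 306, 374 and 426 CPM in BLKO daytime-fed lungs, against 242, 297 and 338 CPM in BLKO ad libitum lungs. All 24 daytime-fed lungs lay above the ad libitum median and 19 above every ad libitum lung, with a log2 fold change of 0.32 ± 0.05 (edgeR adjusted p = 5.2e-05). Rpl19 (0.28), Rpl39 (0.56), Rps3a1 (0.20), Rpl24 (0.21) and Rps16 (0.32) also rose in BLKO lungs. Rps7 (-0.29), the p53-responsive paralog Rps27l (-0.23) and Rpl27 (-0.21) fell.

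In Alb-Cre lungs Rpl13 had 1184, 1777 and 2141 CPM with daytime feeding, against 1103, 1265 and 1710 CPM ad libitum, and 15 of the 24 daytime-fed lungs lay above every ad libitum one. Its log2 fold change was 0.40 ± 0.05 (edgeR adjusted p = 2.3e-09). Rpl15, a large subunit protein, had 15.9, 23.3 and 34.6 CPM in Alb-Cre daytime-fed lungs, against 25.5, 30.2 and 35.9 CPM in Alb-Cre ad libitum lungs, and 16 of the 24 daytime-fed lungs lay below every ad libitum one. Its log2 fold change was -0.33 ± 0.07 (adjusted p = 0.00092). Rpl13a (-0.20), Rps23 (-0.26), a decoding site protein, and Rps4x (-0.38) also fell, and Rpl19 (0.22), Rps3 (0.28), Rpl36al (0.21) and Rpl39 (0.38) rose.

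Rpl19 and Rpl39 rose in the lungs of both genotypes, and Rps4x rose in BLKO lungs (0.40) and fell in Alb-Cre lungs (-0.38). The interaction in lung was called for 6 members higher and 4 lower, against 2.81% and 2.91% of all genes tested. Those higher included Rps4x (0.78 ± 0.16, adjusted p = 0.001), Rpl22l1 (0.58), Rps3a1 (0.20), Rpl10 (0.29) and Rpl24 (0.24), and those lower included the mRNA entry protein gene Rps3 (-0.53), Rpl13 (-0.25) and Rpl27 (-0.28). Rps3a1 was not called without 0B of every group (0.19, adjusted p = 0.053). Leaving out the libraries of 4 h or of 12 h gave 5 calls. Members named here with over 2-fold offsets between the tables were Rps4x (2.69 on the log2 scale), Rpl24 (2.55), Rpl10 (2.37), Rps3a1 (1.88) and Rps3 (-1.91). Across the 6 feeding contrasts, Rpl39 rose in 4 and Rpl3, Rpl19, Rpl27a and Rpl32 in 3, while 0 members fell in 3 or more. In all, 10 members were called in both directions, among them Rps4x with 2 rises and 2 falls, and 26 of the 80 tested in at least 1 tissue were called in none. Matching counts across contrasts were not made over all genes, so whether these numbers are unusual cannot be told.

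Few members had a 24 h rhythm, tested on the cosine and sine of time together. In liver the rhythm was called for 2 of 77 members in BLKO daytime-fed mice, 1 in BLKO ad libitum mice, 5 in Alb-Cre daytime-fed mice and 7 in Alb-Cre ad libitum mice, against 7.75%, 6.96%, 19.7% and 17.6% of all genes tested. The median fitted peak-to-trough of the members was 0.20, 0.15, 0.18 and 0.18 on the log2 scale, in the same order of groups; a fitted swing grows with noise, so these are not set against genes of other levels. Library totals gave 1, 1, 2 and 2 members in the same order of groups, and leaving out BLKO ad libitum 0B and 4B gave 4 in BLKO daytime-fed, 0 in BLKO ad libitum and 11 in Alb-Cre ad libitum livers. In Alb-Cre daytime-fed livers the count was 2 without the libraries of 12, 16 or 18 h and 3 without those of 4, 6 or 10 h. In Alb-Cre ad libitum livers it was 3 without those of 4, 6 or 18 h, 4 without those of 2 or 12 h, and 11, 14 and 13 without those of 8, 10 and 16 h. Of 15 core clock genes, 0 were called rhythmic in BLKO daytime-fed livers, 4 in BLKO ad libitum livers, 13 in Alb-Cre daytime-fed livers and 15 in Alb-Cre ad libitum livers.

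Rpl7l1, whose human form acts in the assembly of the large subunit in the nucleolus, was rhythmic in 3 of the 4 liver groups. In BLKO daytime-fed livers its mean of 2 libraries was highest at 6 h (41.4 CPM) and lowest at 18 h (25.2 CPM), and in BLKO ad libitum livers highest at 14 h (45.7 CPM) and lowest at 4 h (26.8 CPM). In Alb-Cre daytime-fed livers it was highest at 6 h (40.0 CPM) and lowest at 18 h (22.6 CPM), and in Alb-Cre ad libitum livers highest at 14 h (45.2 CPM) and lowest at 20 h (23.6 CPM). The fitted peaks were 7.3 h in BLKO daytime-fed, 15.4 h in BLKO ad libitum and 6.1 h in Alb-Cre daytime-fed livers, with peak-to-trough values of 0.46 ± 0.12, 0.47 ± 0.12 and 0.55 ± 0.11 and edgeR adjusted p of 0.035, 0.036 and 0.0039. The rhythm of Rpl7l1 differed between feedings in BLKO livers (adjusted p = 0.0016) and in Alb-Cre livers (adjusted p = 0.0013). Without BLKO ad libitum 0B and 4B its rhythm in BLKO ad libitum livers was not called (adjusted p = 0.15), and the difference between feedings was (adjusted p = 0.0033).

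**Figure D4:**
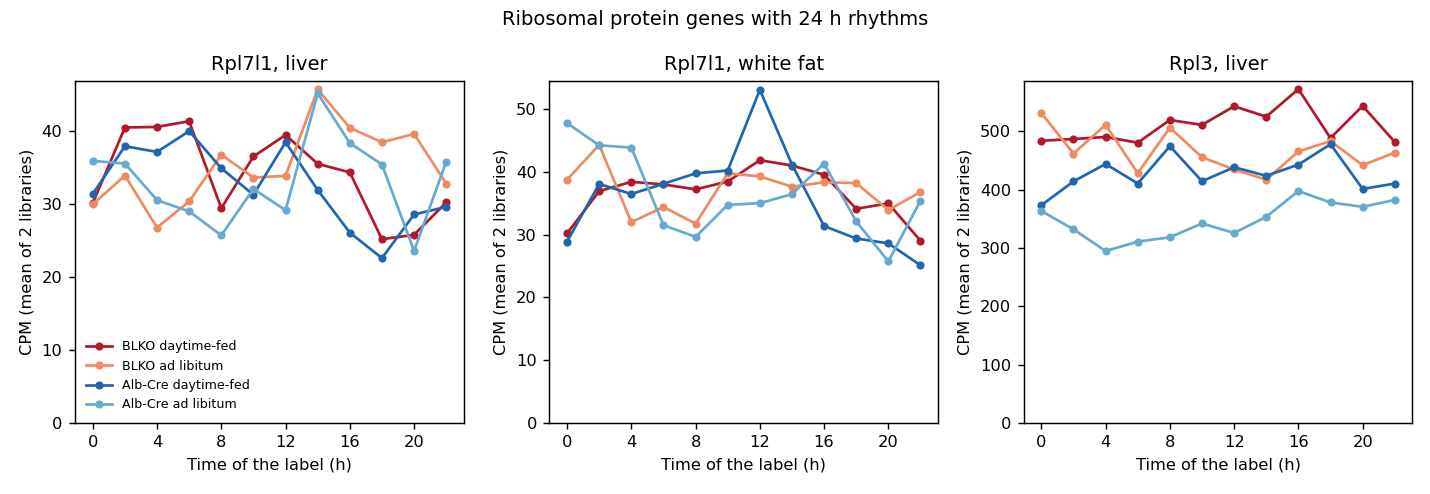
CPM of Rpl7l1 in liver and white fat and of Rpl3 in liver, by label time in h, as the mean of 2 libraries, with 1 line per group. In liver Rpl7l1 is highest at 6 h in both daytime-fed groups and at 14 h in both ad libitum groups.

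In Alb-Cre ad libitum livers Rpl3 had a peak-to-trough of 0.32 ± 0.05 and a fitted peak at 18.4 h (edgeR adjusted p = 0.003), with 398 CPM at 16 h and 295 CPM at 4 h. Rplp0, Rpl4, Rpl27, Rpl32 and the paralog Rps27l peaked between 17.4 and 19.6 h in the same group, and Rps4x at 1.1 h. Rpl3 was the member whose rhythm differed between BLKO and Alb-Cre ad libitum livers (adjusted p = 0.036), against 4.95% of all genes, and this call was lost without BLKO ad libitum 0B and 4B. In Alb-Cre daytime-fed livers Rpl10, Rpl37a, Rplp1 and Rps19bp1 were called besides Rpl7l1, with peaks from 7.9 to 15.5 h, and in BLKO daytime-fed livers Rpl36a (peak 15.6 h). The rhythm differed between feedings for 7 members in BLKO livers, against 15.2% of all genes, and for 6 in Alb-Cre livers, against 28.8%. In BLKO livers these included Rpl7l1, Rplp2, Rpl36a, Rps27a, Rpl12 and Rpl32, and 2 remained, Rpl7l1 and Rps27a, without BLKO ad libitum 0B and 4B. In Alb-Cre livers they were Rpl7l1, Rpl22, Rpl3, Rps4x, Rpl7 and Rpl27a.

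In white fat the rhythm was called for 1 of 78 members in BLKO daytime-fed mice, 7 in BLKO ad libitum mice, 13 in Alb-Cre daytime-fed mice and 3 in Alb-Cre ad libitum mice, against 7.43%, 4.09%, 20.5% and 8.13% of all genes tested. Rpl7l1 in Alb-Cre daytime-fed white fat had the lowest p, with a peak-to-trough of 0.70 ± 0.11 and a fitted peak at 9.6 h (adjusted p = 4.4e-05). It was highest at 12 h (53.1 CPM) and lowest at 22 h (25.1 CPM), while in Alb-Cre ad libitum white fat it was highest at 0 h (47.8 CPM) and lowest at 20 h (25.7 CPM). The other 12 members of Alb-Cre daytime-fed white fat, Rpl31, Rpl32, Rps26, Rps4x and Rps25 among them, peaked between 18.4 and 22.2 h. Without the Adam7 libraries 7 members were called, 6 of them among these 13, and Rps26 (adjusted p = 0.23), Rps29 (0.15), Rps7 (0.073) and Rpl23 (0.088) were among those lost. Without 0B of every group 8 were called and without all 5 libraries 20, with 6 and 10 of the 13 among them. The count was 6, 7, 8 and 8 without the libraries of 8, 6, 12 and 18 h, and 24 without those of 22 h. The 7 of BLKO ad libitum white fat, Rpl9, Rplp2, Rpl36, Rps25, Rpl31, Rps20 and Rps3a1, peaked between 0.4 and 2.5 h, and 0 were called without 0B and 4B, where 0.348 was the lowest adjusted p of the 7. Rps4l was called in BLKO daytime-fed white fat, and Rpl27, Rps27l and Rps19bp1 in Alb-Cre ad libitum white fat, with peaks near 19 h. The rhythm differed between feedings for 1 member in BLKO white fat, Rps4l, against 8.97% of all genes, and for 3 in Alb-Cre white fat, Rpl7l1 (adjusted p = 0.00058), Rps4x and Rps19bp1, against 11.4%.

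In lung the rhythm was called for 0 of 79 members in BLKO daytime-fed mice, 1 in BLKO ad libitum mice, 0 in Alb-Cre daytime-fed mice and 7 in Alb-Cre ad libitum mice, against 1.07%, 12.7%, 1.39% and 15% of all genes tested. At an unadjusted p under 0.05 the counts of the daytime-fed groups were 1 in BLKO and 4 in Alb-Cre mice, and DESeq2 called 0 in both. Rps9, a decoding region protein of the small subunit, had a peak-to-trough of 0.70 ± 0.21 and a fitted peak at 6.9 h in Alb-Cre ad libitum lungs (edgeR adjusted p = 0.0012), with 314 CPM at 6 h and 128 CPM at 20 h. Rps3a1, Rplp2, Rpl28, Rps4x and Rpl9 peaked between 5.8 and 8.2 h in the same group, and Rps19bp1 at 18.2 h. Without the libraries of 20 h 1 member was called in this group, and without those of 10 h 21 were. In BLKO ad libitum lungs Rpl22, which binds RNA outside the ribosome too, peaked at 4.8 h with a peak-to-trough of 0.47 ± 0.10 (adjusted p = 0.0016).

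The rhythm differed between feedings for 0 members in BLKO lungs (2 at an unadjusted p under 0.05, and 1 by DESeq2) and 0 in Alb-Cre lungs (12 at an unadjusted p under 0.05, and 0 by DESeq2), against 1.87% and 0.745% of all genes. Between BLKO and Alb-Cre mice the rhythm differed for 0 members in daytime-fed livers (3 unadjusted, 1.67% of all genes called), 0 in ad libitum white fat (6 unadjusted, 0% of all genes), 0 in daytime-fed white fat (0 unadjusted, 0.00904% of all genes), 0 in ad libitum lungs (7 unadjusted, 0% of all genes) and 0 in daytime-fed lungs (5 unadjusted, 0% of all genes), where edgeR and DESeq2 both gave 0 members.

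In some groups most fitted peaks of the members, called or not, lay in the same 6 h of the day, and in others they were spread. In BLKO daytime-fed livers 75.32% of the members peaked between 12 and 18 h, against 22.04% of all genes. In Alb-Cre daytime-fed livers 42.86% peaked between 6 and 12 h and 42.86% between 12 and 18 h, against 25.93% and 22.69%. In BLKO ad libitum livers 42.86% peaked between 18 and 24 h and 31.17% between 0 and 6 h, against 23.41% and 24.66%. Without 0B and 4B these member shares were 41.56% and 14.29%, and 20.78% peaked between 12 and 18 h. In Alb-Cre ad libitum livers 49.35% peaked between 18 and 24 h, against 24.53%. In white fat 87.18% peaked between 18 and 24 h in BLKO daytime-fed mice, against 25.87% of all genes. Between 0 and 6 h the share was 83.33% in BLKO ad libitum mice, against 26.91%. Between 18 and 24 h it was 82.05% in Alb-Cre daytime-fed mice, against 27.54%. Without the libraries that stand apart these 3 member shares were 71.79%, 62.82% and 38.46%. In Alb-Cre daytime-fed white fat 53.85% of the members then peaked between 12 and 18 h. In BLKO daytime-fed lungs the fullest span was 18 to 24 h, with 53.16% of the members against 25.55% of all genes. In BLKO ad libitum lungs it was 0 to 6 h, with 37.97% against 25.61%. Without 0B and 4B it was 6 to 12 h, with 40.51% of the members, and 20.25% peaked between 0 and 6 h. In Alb-Cre daytime-fed lungs it was 18 to 24 h, with 36.71% against 24.24%. In Alb-Cre ad libitum lungs it was 6 to 12 h, with 55.7% against 27.12%. These members share their libraries, so a deviation of 1 library moves many of them at once.

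Member by member, the deviation from the group mean, taken as the median over members at each time, was at most 0.15 in Alb-Cre ad libitum livers and 0.42 in Alb-Cre daytime-fed white fat. In that white fat the highest time was 0 h, where 0B is an Adam7 library: without the Adam7 libraries the highest time was 18 h with 0.16. In BLKO ad libitum white fat 0 h was highest with 0.32, and 2 h with 0.10 without 0B and 4B. In BLKO daytime-fed livers 16 h was highest (0.15) and 4 h lowest (-0.10), and in Alb-Cre daytime-fed livers 16 h (0.09) and 20 h (-0.06).

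**Figure D5:**
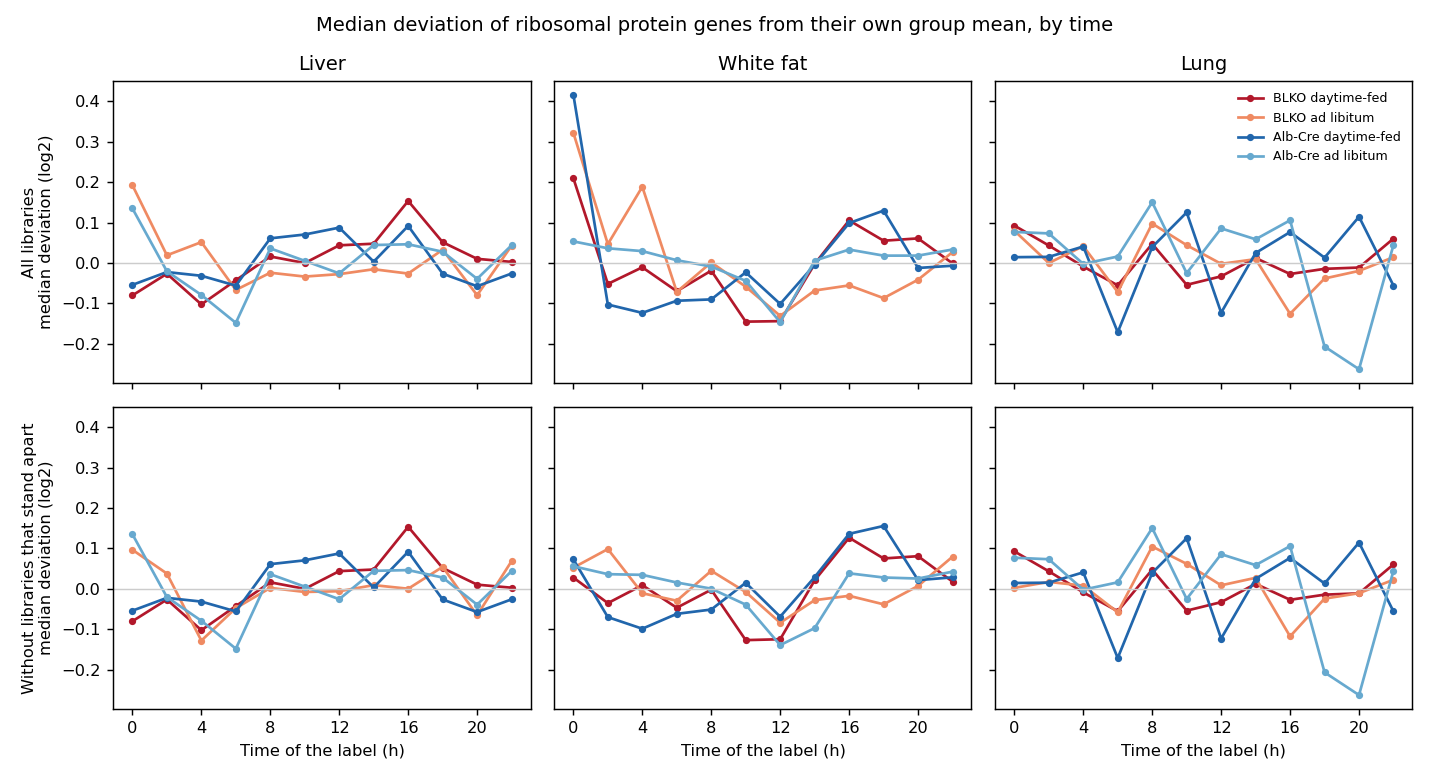
Median over ribosomal protein genes of the log2 deviation from each gene's mean in the group, by label time in h, with 1 line per group and 2 libraries per point at most. The upper row has all libraries and the lower row leaves out the libraries that stand apart, where the highest value in Alb-Cre daytime-fed white fat is 0.16 at 18 h in place of 0.42 at 0 h.

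Other genes of the translation machinery were counted from lists of translation factors and of ribosomal proteins outside the symbol rule. In BLKO livers 3 of 23 translation factors with TOP mRNAs were called, 1 higher and 2 lower, and in Alb-Cre livers 6, of which 5 were higher: the elongation factor exchange subunit Eef1b2 (0.27 ± 0.04) and Eef1g (0.22 ± 0.04) were among them. In BLKO white fat 3 of 24 were called, 1 higher and 2 lower, and in Alb-Cre white fat 5, all higher. Fau, which encodes a ribosomal protein fused to a ubiquitin-like part, had an interaction of -0.47 ± 0.10 in white fat. In that contrast 2 of the 4 ribosomal protein genes outside the rule were called, both lower, against 1 of 24 TOP translation factors and 5 of 29 abundant short mRNAs outside the ribosome, all lower. The list medians were -0.27, -0.15 and -0.06, and 1.71% of all genes were called higher and 1.89% lower. In lung 1 of 4 outside the rule, Fau, rose in each genotype (0.20 in BLKO and 0.25 in Alb-Cre lungs). For mTOR signalling and TOP control, feeding calls numbered 0 of 29 in BLKO livers, 2 (1 higher and 1 lower) in Alb-Cre livers, 5 (3 higher and 2 lower) in BLKO white fat and 6 (3 higher and 3 lower) in Alb-Cre white fat. For RNA polymerase I and rRNA factors they numbered 0 of 16 in the livers of both genotypes, 4 (1 higher and 3 lower) in BLKO white fat and 3, all higher, in Alb-Cre white fat. The 29 and 16 are the numbers tested in liver, and those in white fat can differ. Of all genes, 2.24% were higher and 2.01% lower in BLKO livers, and 4.33% and 3.54% in Alb-Cre livers. These shares were 5.02% and 5.39% in BLKO white fat and 4.89% and 4.91% in Alb-Cre white fat. In lung 2.17% of all genes were higher in BLKO and 4.34% in Alb-Cre mice. The 2 of 29 in Alb-Cre livers and the 3 of 24 TOP translation factors in BLKO white fat are close to the share of all genes.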

How the data were processed

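RNA from liver, white fat and lung was sequenced, and reads were assigned to genes by the authors, who deposited raw counts per gene in a table for each tissue and genotype. The submitters' processing notes name STAR and HTSeq, with cutadapt, bcl2fastq and DESeq2, and the build mm10. Annotation, strand setting and the handling of reads shared between gene copies: not given in the sources used here. For each tissue the genes of both tables were joined, filtered with filterByExpr and scaled by TMM, and 1 edgeR 4.0.16 quasi-likelihood model (R 4.3.3) was fitted to 96 libraries, with a mean and 24 h cosine and sine terms for each group. P-values were adjusted by Benjamini-Hochberg over all genes of the tissue, with a threshold of 0.05. For feeding differences and interactions, SE is the log2 fold change divided by the root of F. Fitted peaks, peak-to-trough values and their SE come from a least-squares cosine and sine fit to log2 CPM. That fit used the 24 libraries of a group, while the p-values of rhythms come from the edgeR model. CPM values use TMM-scaled library sizes, except the mean levels of members over all libraries of a tissue, which use library totals. DESeq2 1.42.0 was an alternative. The test was checked on simulated data in which each gene varied independently. That check does not cover libraries that move many members at once. Since no label ties a library to an animal, the p-values reflect library-to-library spread, which may be technical. Genes named are the 10 with the lowest p among the members called in a contrast, and for rhythms the members called. The members and lists were chosen with earlier results of these data known. Replicate letters did not pair the libraries: the correlation of deviations was over 0.1 in 14 of 72 pairs, and in 6 of 12 in Alb-Cre white fat (median 0.097). Some genes that met these rules are not reported here.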

Additional observations from a re-analysis of the deposited data

Results flagged for a closer look

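Feeding differences that differed between genotypes by the interaction test (BLKO minus Alb-Cre, log2 scale, edgeR) are collected here, among the named genes. In liver they were Rps4x (0.99), Rps27a (-0.48), Rpl9 (-0.26), Rps10 (-0.25), Rpl13a (-0.24) and Rps19 (-0.20). In white fat they were Rps24 (-0.34), Rpl35 (-0.37), Rps27a (-0.54), Rpl39 (-0.97), Rplp1 (-0.28), Rps3a1 (-0.35), Rplp2 (-0.34), Rps28 (-0.38), Rps16 (-0.39) and Rpl24 (-0.28). In lung they were Rps4x (0.78), Rps3 (-0.53), Rpl13 (-0.25), Rpl22l1 (0.58), Rpl27 (-0.28), Rps3a1 (0.20), Rpl10 (0.29) and Rpl24 (0.24). The rhythm of Rpl3 differed between BLKO and Alb-Cre ad libitum livers (adjusted p = 0.036). Rps27a was called in liver and in white fat with the same sign, and Rps4x in liver and in lung. Rps4x differed by over 2-fold between the tables in both tissues, as did Rps16 in white fat and Rps3, Rps3a1, Rpl10 and Rpl24 in lung. The part of these offsets in the interactions was not tested.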

How the results depend on the processing

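Counts of members called are given as the alternative's value with the reported count after "for". Library totals alone gave, in liver, 5 for 10 risen in BLKO, 1 for 2 rhythmic in BLKO daytime-fed, 2 for 5 and 2 for 7 in Alb-Cre daytime-fed and ad libitum, 3 for 6 feeding rhythm differences in Alb-Cre and 0 for 1 genotype rhythm difference. In white fat they gave 0 for 1 and 1 for 7 rhythmic in BLKO daytime-fed and ad libitum. Without a filter the liver genotype rhythm difference was 0 for 1, and in BLKO white fat 2 for 1 rhythmic daytime-fed and 2 for 1 feeding rhythm difference, which scaling by non-members also put at 2. Each table alone gave, in liver, 3 for 7 feeding rhythm differences in BLKO and 3 for 5 rhythmic in Alb-Cre daytime-fed. In white fat it gave 20 for 12 fallen in BLKO, 2 for 1 rhythmic in BLKO daytime-fed, 1 for 3 in Alb-Cre ad libitum, and 2 for 1 and 1 for 3 feeding rhythm differences in BLKO and Alb-Cre. In lung it gave 26 for 16 (BLKO) and 5 for 13 (Alb-Cre) called for feeding and 7 for 1 rhythmic in BLKO ad libitum. DESeq2 gave, in liver, 4 for 2 rhythmic in BLKO daytime-fed and 2 for 1 genotype rhythm differences, in white fat 12 for 7 rhythmic in BLKO ad libitum and 2 for 1 feeding rhythm differences in BLKO, and in lung 3 for 1 rhythmic in BLKO ad libitum and 1 for 0 feeding rhythm differences in BLKO. Requiring a fitted swing (peak-to-trough) of 1.5-fold or more left 0 for 2, 0 for 1, 0 for 5 and 1 for 7 rhythmic in liver (BLKO daytime-fed, BLKO ad libitum, Alb-Cre daytime-fed, Alb-Cre ad libitum), 0 for 1, 0 for 7, 2 for 13 and 0 for 3 in white fat, and 0 for 1 (BLKO ad libitum) and 4 for 7 (Alb-Cre ad libitum) in lung.

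Leaving out libraries was chosen after seeing the data. Without BLKO ad libitum 0B and 4B the counts were, in liver, 4 for 2 and 0 for 1 rhythmic in BLKO daytime-fed and ad libitum, 11 for 7 in Alb-Cre ad libitum, 2 for 7 and 11 for 6 feeding rhythm differences in BLKO and Alb-Cre, and 0 for 1 genotype rhythm difference. In white fat they were 7 for 12 fallen in BLKO, 13 for 22 interactions, 2 for 1 and 0 for 7 rhythmic in BLKO daytime-fed and ad libitum and 5 for 3 in Alb-Cre ad libitum, and in lung 2 for 1 rhythmic in BLKO ad libitum. Without 0B of every group they were, in liver, 0 for 1 rhythmic in BLKO ad libitum and 4 for 7 feeding rhythm differences in BLKO, and in white fat 14 for 22 interactions and 3 for 1, 1 for 7, 8 for 13 and 6 for 3 rhythmic (order of groups as above). Without the Adam7 libraries white fat gave 29 for 12 fallen in BLKO, 0 for 1, 22 for 7, 7 for 13 and 8 for 3 rhythmic, and 3 for 1 feeding rhythm differences in BLKO. Without all 5 libraries it gave 2 for 1, 0 for 7, 20 for 13 and 11 for 3 rhythmic and 9 for 3 feeding rhythm differences in Alb-Cre. The cause was not tested.

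Leaving out 1 time at a time, in liver, feeding calls ranged from 4 to 10 in BLKO and 20 to 28 in Alb-Cre, interactions from 2 to 6, rhythms from 0 to 3 (BLKO daytime-fed), 0 to 3 (BLKO ad libitum), 2 to 5 (Alb-Cre daytime-fed) and 3 to 14 (Alb-Cre ad libitum), feeding rhythm differences from 2 to 10 in BLKO and 3 to 9 in Alb-Cre, and genotype rhythm differences from 0 to 0 daytime-fed and 0 to 6 ad libitum. In white fat these ranges were 8 to 15 and 8 to 19, 5 to 25, 0 to 1, 1 to 10, 6 to 24 and 0 to 11, 0 to 2 and 1 to 5, and 0 to 0 for both. In lung they were 11 to 17 and 6 to 18, 5 to 11, 0 to 0, 1 to 3, 0 to 0 and 1 to 21, 0 to 1 and 0 to 2, and 0 to 0 for both.

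With the replicate letter as a block, feeding calls in BLKO and Alb-Cre numbered 11 and 26 (liver), 12 and 13 (white fat) and 15 and 10 (lung). Interactions then numbered 6, 16 and 8, and feeding rhythm differences 5 and 6, 1 and 3, and 0 and 0. The block and the means of each group and time gave no rhythm within a group, and each table alone gave no genotype contrast. Of 1926 alternative values of the 86 named means, 0 reversed and 172 lost their call, and of 1306 of the 62 named rhythms 299 did.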

Other observations

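Levels of some members differed widely between the genotype tables, which cannot be told apart from how the tables were made. Between BLKO and Alb-Cre ad libitum libraries, 24 of 79 members in lung (30.4%) differed by more than 2-fold, against 4.48% of all genes, 8 of 78 in white fat (10.3%), against 2.64%, and 4 of 77 in liver (5.19%), against 6.52%. Rps24, a small subunit gene, had 1.17, 2.26 and 4.12 CPM (lowest, median, highest) in BLKO ad libitum livers, against 391, 478 and 542 CPM in Alb-Cre ad libitum livers. The ranges did not overlap. In lung the medians were 991 CPM of Rps9 in BLKO and 244 CPM in Alb-Cre ad libitum mice, and 192 CPM of Rps3 in BLKO and 723 CPM in Alb-Cre ad libitum mice. Some members were in a single table of a tissue and had no feeding test: Rpl30 and Rps20 (Alb-Cre) and Rpl32l, Rps15a and Rps23rg1 (BLKO) in liver, Rpl39l (Alb-Cre) in white fat, and Rpl34 and Rps27 (BLKO) in lung.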
